A study of Homo sapiens with 7 samples.

Results

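Cells lacking the de novo DNA methyltransferase DNMT3B were compared by Hi-C after 4 d of auxin and without auxin. The comparison holds 2 of the 7 libraries of the series, 1 per condition, chosen by their titles, which name the knockout and either auxin for 4 d or no treatment. All libraries came from DLD-1, an established human colorectal adenocarcinoma line, in which DNMT1 carries an auxin-inducible degron (the DNMT1-AID genotype), and auxin was indole-3-acetic acid at 500 nM. The treated library has the genotype label DNMT1-AID;DNMT3b -/-. For the untreated library the title names the knockout but the genotype label gives DNMT1-AID alone, and the title was followed. The knockout library after 10 d of auxin, which is compared with the same untreated library, and the DNMT1-AID libraries without auxin and after 4 d, which keep DNMT3B, are given beside it where they bear on a value.

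DNMT1 copies the methylation pattern onto the new strand after DNA replication, while DNMT3B places methylation on unmethylated sites and also helps to keep it on repeats and satellite DNA. The degron is a tag that brings the protein to the proteasome once auxin is added, so that methylation is diluted over cell divisions when DNMT1 is gone. Inherited DNMT3B mutations cause the ICF syndrome, in which satellite DNA next to the centromeres of chromosomes 1, 9 and 16 is undermethylated and these chromosomes show stretched and joined arms. Hi-C ligates DNA ends that were neighbours in the nuclear space and counts the ligated pairs by sequencing. Contact falls steeply with separation along a chromosome. At long range, gene-rich active chromatin (the A compartment) and gene-poor repressed chromatin (the B compartment) each contact their own kind, and gene-rich chromosomes meet each other more often than gene-poor ones.

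The treated library held 133252390 contacts and the untreated one 101594306, counted between 100 kb and the chromosome end within chromosomes, and at any position between them. With 1 library per condition no difference could be tested against replicates, and the intervals given below are 95% exact intervals that cover counting error only. Numbers of arms, chromosomes or pairs with a direction describe these libraries, whose arms share a culture, a ligation and a sequencing depth. Contact sums carry no gene-level values, so the deletion of DNMT3B and the degradation of DNMT1 could not be checked here. Since the degron is present in every library, responses to auxin as a compound and to DNMT1 loss cannot be told apart. As a check of the title of the untreated library, the coverage of chromosome 8 was set against that in DNMT1-AID cells without auxin: it was 1.42-fold in this library, 1.43-fold in both treated knockout libraries and 0.995-fold to 0.998-fold in the other 3 DNMT1-AID libraries. Contacts of mitochondrial DNA numbered 949 for every 1000000 contacts in the treated library and 534 in the untreated one, against 532 in the knockout at 10 d, 288 in DNMT1-AID cells at 4 d and 377.1 in these cells without auxin. The part of this difference in the results below was not tested.

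After 4 d of auxin, knockout cells had more contacts within chromosome arms at separations above 50 Mb, while contact in each of the 8 classes of shorter separation differed by a log2 ratio of at most 0.071. Balanced contact, the authors' contact value after each bin was scaled to a like total, is given per bin pair. Of the contacts within arms, 1450119 (1.51%) lay at 50 to 100 Mb in the treated library and 910494 (1.26%) in the untreated one. Balanced contact there was higher by a log2 ratio of 0.28 (SD over arms 0.096). It was higher in 20 of the 20 arms with at least 1000 such contacts in both libraries (100.0% of the arms measured). At 100 Mb or more, 68119 and 41586 contacts were counted, and the log2 ratio was 0.33, higher in 4 of 4 arms that held at least 1000. The next class, 20 to 50 Mb, had 0.071 and was higher in 34 of 38 arms (89.5%), and 10 to 20 Mb had 0.036, higher in 29 of 41 arms (70.7%). The log2 ratio was thus larger in each class than in the one before it, from 1 Mb outward.

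Among single arms at 50 to 100 Mb, 3p lay highest, with 58692 contacts against 31629 and a log2 ratio of 0.48. Next came 4q at 0.35, 6q at 0.34 and 8q at 0.33. The lowest were Xq at 0.058, 11q at 0.068 and 13q at 0.15. At 100 Mb or more the values were 0.23 for 1p, 0.30 for 2q, 0.33 for 5q and 0.43 for 4q. The same 20 arms had log2 ratios between -0.41 and -0.20 after 4 d of auxin in DNMT1-AID cells, so that the ranges of the genotypes do not overlap in this class. The knockout at 10 d, compared with the same untreated library, had 0.68 at 50 to 100 Mb and 0.88 at 100 Mb or more. The curve of contact against separation was also flatter there after 4 d: near 55 Mb its local slope on log scales was -1.53, against -1.80 without auxin, whereas near 1.17 Mb it was -1.65 and -1.64.

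**Figure D1:**
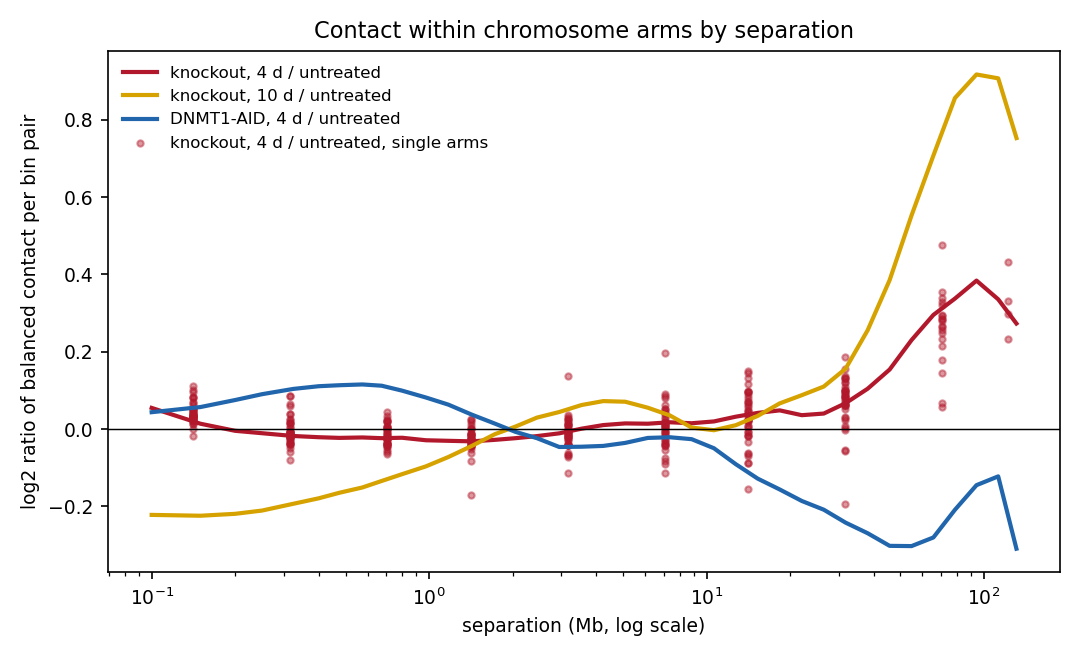
The log2 ratio of balanced contact per bin pair within arms (y axis) is plotted against separation in Mb on a log axis, with a line for each comparison and a dot for each arm and separation class of the knockout at 4 d. The red line (knockout, 4 d) lies near 0 up to about 20 Mb and then rises, with a pooled value of 0.28 for the class from 50 to 100 Mb, the yellow line (knockout, 10 d) ends higher, and the blue line (DNMT1-AID, 4 d) lies below 0 from 2 Mb on.

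At short range, contact at 100 to 200 kb was higher by a log2 ratio of 0.038 and was higher in 40 of 41 arms (97.6%), with Xq as the exception at -0.018. Within this class the value was 0.055 at 100 kb and 0.014 at 150 kb, and at 200 kb it was -0.005. Contact was then lower at each class up to 5 Mb, by -0.014 at 0.2 to 0.5 Mb, -0.024 at 0.5 to 1 Mb, -0.030 at 1 to 2 Mb and -0.0062 at 2 to 5 Mb. The class at 1 to 2 Mb, the scale of large topological domains, was lower in 34 of 41 arms (82.9%), with 19p lowest at -0.17 and 17p highest at 0.025. At 5 to 10 Mb the log2 ratio was 0.015, which turned to -0.0027 with raw counts in place of balanced values. DNMT1-AID cells at 4 d had values of opposite direction in the classes between 0.2 and 2 Mb (0.096, 0.11 and 0.044), and the difference between the genotypes was not tested. The knockout at 10 d had -0.22 at 100 to 200 kb and -0.20 at 0.2 to 0.5 Mb.

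The share of long-range contacts was then followed arm by arm. Of the contacts within arms, 14.459% spanned 10 Mb or more (interval 14.452% to 14.466%), and 13.825% did so without auxin (13.817% to 13.833%). This share was higher in 32 of 41 arms (78.0%), and the log2 ratio was at or above 0.1 in 6 arms (14.6%) and at or below -0.1 in 3 (7.32%). The share at 1 to 10 Mb was higher in 7 of 41 arms (17.1%), with a median log2 ratio over arms of -0.025.

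The arms with a lower long-range share were mostly gene-dense. In 19p, the short arm of the most gene-dense chromosome (28.7 protein-coding genes per Mb), 13128 contacts at 10 Mb or more were 2.67% of the arm's total, against 12559 contacts or 3.14% without auxin, a log2 ratio of -0.23 (interval -0.27 to -0.20). The share of 17q was 7.63% against 8.30% (-0.12), and that of 22q was 5.77% against 6.21% (-0.11). For 21q the log2 ratio was -0.070, for 9q -0.057, for 17p -0.050, for 19q -0.042 and for 15q -0.023. When only contacts from 1 Mb on were taken as the denominator, 17p, 19q and 15q turned to 0.0076, 0.050 and 0.015. The other low arms kept their sign but were closer to 0, except for 21q: 19p had -0.078, 17q -0.038, 22q -0.0095, 9q -0.011 and 21q -0.079.

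At the other end, the share of 18p was 1.06% against 0.947%, a log2 ratio of 0.16, which rested on 4491 and 3020 contacts and had an interval of 0.093 to 0.23. It was 0.037 with a boundary of 5 Mb and 0.086 with balanced sums. The share of 5p was 11.03% against 10.03% (0.14) and that of 4q 20.8% against 19.3% (0.11). These were followed by 8q and 4p, each at 0.11, 11p at 0.10, 16p at 0.0995 and 18q at 0.097. With the exception of 11p and 16p, the arms named here had fewer than 6 genes per Mb. The short arm 16p, with 18.3 genes per Mb, is as gene-dense as 17p (18.2), and the intervals of these arms do not overlap: 0.079 to 0.12 for 16p and -0.091 to -0.0092 for 17p. In the untreated DNMT1-AID library the authors' A clusters covered 42.8% of the clustered bins of 16p and 69.9% of those of 17p.

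Ordered by gene density, the 10 most gene-dense arms had a median log2 ratio of -0.021, and 5 of 10 were higher. The 10 least gene-dense arms had a median of 0.10, and 10 of 10 were higher. The 21 arms between them had a median of 0.056, and 17 of 21 were higher. Across the 41 arms, Pearson's r between the log2 ratio and genes per Mb was -0.69 and Spearman's rho -0.59, and without 19p and 19q r was -0.55. With the share of an arm's bins in the deposited A clusters, which are those of the active, gene-rich compartment in untreated DNMT1-AID cells, r was -0.78 over the 38 arms that have such values, and with arm length it was 0.29. For balanced contact per bin pair r with genes per Mb was -0.56 at 10 to 20 Mb (41 arms) and -0.14 at 20 to 50 Mb (38 arms). These correlations run across arms of the same pair of libraries and are a description.

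The share under 1 Mb, which was lower in 25 of 41 arms (61.0%), had the mirror pattern. It was higher in 7 of the 10 most gene-dense arms, with a median log2 ratio of 0.017, and lower in 8 of the 10 least gene-dense arms, with a median of -0.019. In 19p it was 76.6% against 73.9%, and in 4q 55.7% against 56.8%. The shares of an arm add up to its total, so the mirror pattern is in part the same result. The decay exponent between 0.5 and 5 Mb, the slope of contact against separation on log scales, was lower (a steeper decay) in 8 of the 10 most gene-dense arms and higher in 8 of the 10 least gene-dense arms, beside 22 of all 41 arms higher (53.7%). Its difference had r = -0.76 with the A cluster share over 38 arms.

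**Figure D2:**
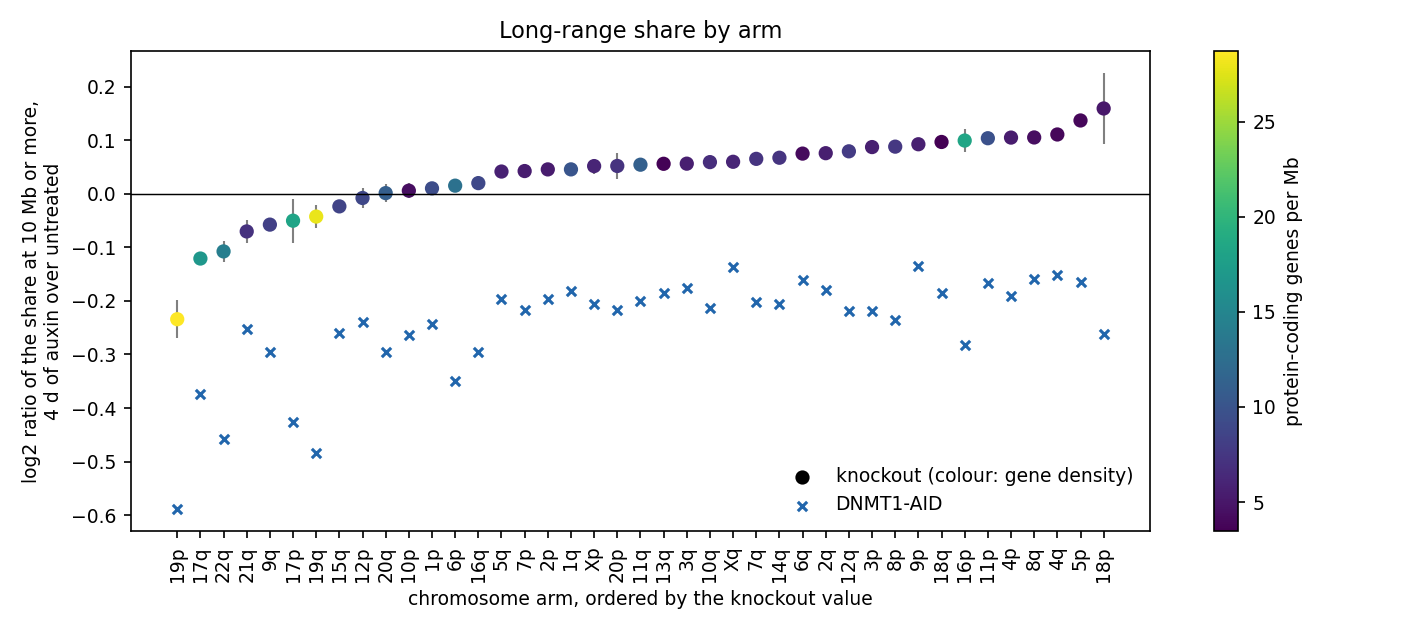
Each of the 41 arms (x axis, ordered by the knockout value) has its log2 ratio of the share of contacts at 10 Mb or more, 4 d of auxin over untreated, as a filled circle for the knockout, coloured by protein-coding genes per Mb and with its counting interval as a grey bar, and as a blue cross for DNMT1-AID cells. The knockout values run from -0.23 in 19p to 0.16 in 18p, and the cross lies below the circle in 41 of 41 arms.

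In DNMT1-AID cells, which keep DNMT3B, the same share was lower after 4 d in 41 of 41 arms, with a median log2 ratio of -0.22. Pooled over arms, it was 16.27% without auxin and 14.15% at 4 d there, against 13.82% and 14.46% in the knockout. The levels of the genotypes thus lay farther apart without auxin than at 4 d. The difference between the genotypes in the log2 ratio (knockout minus DNMT1-AID) was positive in 41 of 41 arms. It had a median of 0.27, an SD of 0.057 and a range from 0.18 to 0.44. It was not tested, as each of the 4 groups holds 1 library. The arms kept a similar order in both genotypes: across 41 arms, r between the log2 ratios was 0.82 and rho 0.69, and r was 0.74 over the 39 arms without those of chromosome 19. These comparisons share no library, but the arms' lengths and base composition are the same in both. In 19p the value was -0.59 in DNMT1-AID cells and -0.23 in the knockout, in 22q -0.46 and -0.11, in 4q -0.15 and 0.11, and in 18p -0.26 and 0.16.

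The coverage of whole chromosomes is the share of all contact ends that lie on them, so a contact within a chromosome counts with both ends. This coverage moved with gene density too. It was lower after 4 d on chromosome 19 (log2 ratio -0.11), 22 (-0.068), 20 (-0.049), 16 (-0.048) and 17 (-0.042), and higher on 21 (0.051), 13 (0.045) and 4 (0.041). Counted over contacts between chromosomes alone, the value of chromosome 19 was -0.041. At 10 d, against the same untreated library, the first 5 of these were higher, with 0.10, 0.087, 0.016, 0.043 and 0.056. Across 23 chromosomes r with genes per Mb was -0.86 in the knockout and -0.48 in DNMT1-AID cells at 4 d. The long-range change of an arm had r = 0.60 with the coverage change of its chromosome over 41 arms. The part of coverage in the arm values was not tested.

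**Figure D3:**
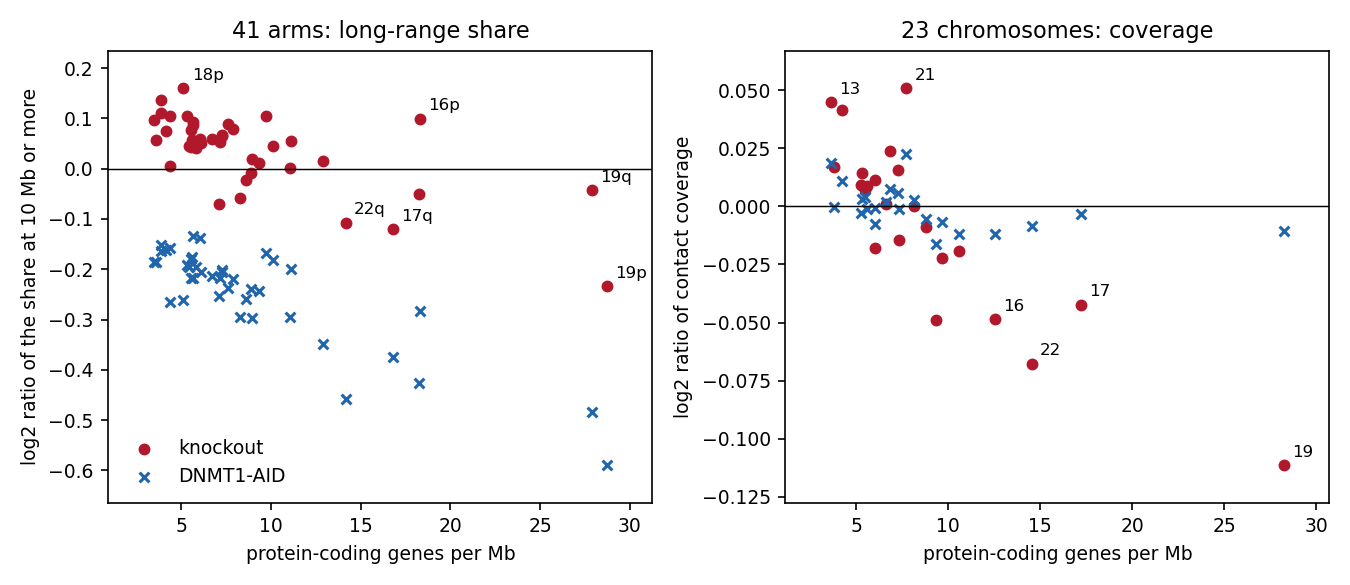
Protein-coding genes per Mb (x axes) are set against the log2 ratio of the long-range share in 41 arms (left) and of contact coverage in 23 chromosomes (right), 4 d of auxin over untreated, with red circles for the knockout and blue crosses for DNMT1-AID cells. In the left panel 19p lies lowest at -0.23 and 16p stands at 0.0995 among arms of its density, and in the right panel chromosome 19 lies lowest at -0.11.

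The long arm of the X chromosome stood apart in the range between 2 and 20 Mb. At 2 to 5 Mb, 144821 contacts were counted against 98401 and the balanced contact was higher by a log2 ratio of 0.14. It was higher by 0.20 at 5 to 10 Mb and by 0.15 at 10 to 20 Mb. At 20 to 50 Mb, with 118938 and 88693 contacts, the log2 ratio was 0.0069. In the first 2 of these classes Xq was the highest of 41 arms, against medians of -0.013 and 0.0059. Between 0.1 and 1 Mb Xq was instead the lowest arm in all 3 classes, at -0.018, -0.081 and -0.064.

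The decay exponent of Xq was -1.33 at 4 d and -1.42 without auxin, the largest difference of any arm (0.095, against an SD over arms of 0.027). The short arm of the X chromosome had a difference of -0.0028 in its exponent, and its contact at 5 to 10 Mb was lower by -0.035. In DNMT1-AID cells at 4 d, Xq had log2 ratios of -0.0077, -0.0045 and -0.038 in the 3 classes from 2 to 20 Mb. The knockout at 10 d had 0.23, 0.40 and 0.30, against the same untreated library. The coverage of the X chromosome after 4 d, relative to the untreated DNMT1-AID library, was 0.978-fold, against 0.971-fold in the untreated knockout.

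Contacts across the centromere were compared next. The inter-arm ratio is the balanced contact between the arms of a chromosome over that within its arms, each separation between 20 and 50 Mb matched. After 4 d it was 0.778, against 0.841 without auxin (log2 ratio -0.11), and it was lower on 16 of the 18 chromosomes that have enough pairs (88.9%). Chromosome 19 moved most, from 0.865 to 0.661, a log2 ratio of -0.39. At the matched separations it rests on 27184 contacts between its arms and 10335 within them after 4 d, and on 27474 and 8217 without auxin. Nearly all of those within arms, 10244 and 8120, lay in 19q. The log2 ratio of chromosome 19 was -0.26 at 10 to 40 Mb and -0.29 without matching.

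The chromosomes with large blocks of satellite DNA came next in that order. The ratio of chromosome 1 was 1.32 without auxin and 1.07 after 4 d (-0.30), that of chromosome 16 was 1.27 and 1.07 (-0.25), and that of chromosome 9 was 1.08 and 0.925 (-0.22). At 10 to 40 Mb chromosome 9 had -0.099, which is closer to 0 than chromosome 5 (-0.12) and the pooled value (-0.12) in that range. Ratios above 1, where contact across the centromere exceeds contact within the arms at equal separation, were also found in untreated cells on chromosomes 5 (1.02), 12 (1.09) and 17 (1.17). After 4 d the ratios of chromosomes 5 (0.915), 9 (0.925) and 12 (0.997) lay below 1. Together chromosomes 1, 9 and 16 had a median log2 ratio of -0.25 (3 of 3 lower), and the other 15 chromosomes a median of -0.12 (13 of 15 lower). Pairs across the centromere were measured only from 20 Mb on for chromosomes 1 and 9, and from 10 Mb on for 16. In these innermost classes contact between arms had log2 ratios of -0.19, -0.17 and -0.15. The 15 chromosomes measured at 2 to 10 Mb had a median of -0.23 there. The part of this unequal distance in the lower ratios of 1, 9 and 16 was not tested. Of the others, chromosome 5 had -0.16. The values closest to 0 or above it were those of chromosomes 4 (-0.073), 8 (-0.061), 17 (-0.053), X (0.029) and 20 (0.034), and those of X and 20 turned to -0.077 and -0.033 at 10 to 40 Mb.

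In DNMT1-AID cells at 4 d the pooled ratio was higher by 0.078, and on 16 of 18 chromosomes. There chromosome 9 had 0.26, chromosome 16 had 0.11, chromosome 1 had -0.042 and chromosome 19 had 0.0048. The higher ratio was no gain of contact between arms. At 20 to 50 Mb that contact was lower in DNMT1-AID cells by -0.20, on 18 of 18 chromosomes, and contact within arms was lower by -0.23. The difference between the genotypes in the log2 ratio of the inter-arm ratio was negative on 18 of 18 chromosomes, with a median of -0.20, and was not tested. In the knockout at 10 d, against the same untreated library, the log2 ratio was -0.74 on chromosome 16, -0.66 on chromosome 1, -0.53 on chromosome 9 and -0.38 on chromosome 19, with a median of -0.28 on the 15 chromosomes other than 1, 9 and 16.

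**Figure D4:**
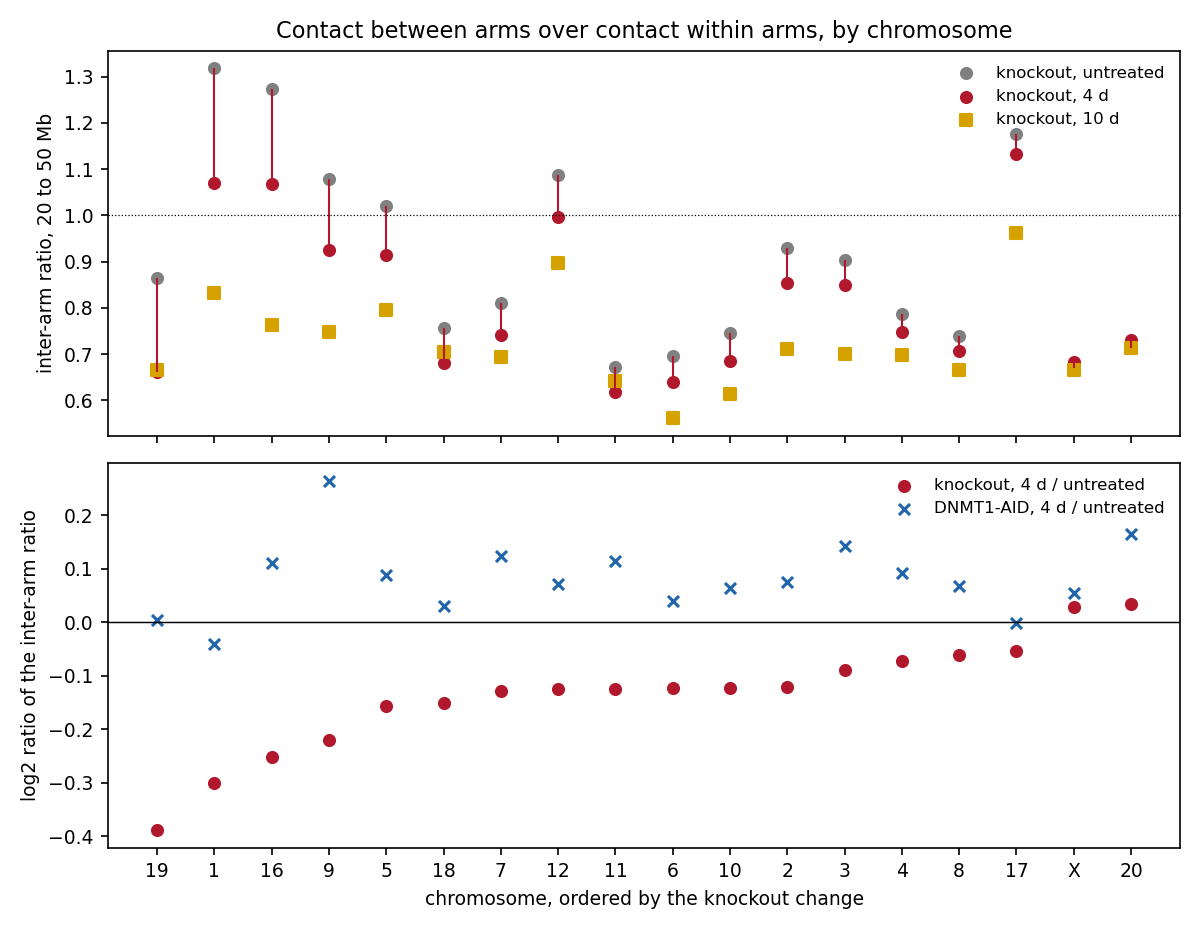
The upper panel gives the inter-arm ratio at 20 to 50 Mb for 18 chromosomes (x axis, ordered by the knockout change at 4 d) in the knockout without auxin (grey), at 4 d (red) and at 10 d (yellow squares), and the lower panel the log2 ratio of 4 d over untreated in the knockout (red) and in DNMT1-AID cells (blue crosses). Chromosomes 19, 1, 16 and 9 lie lowest at 4 d, with -0.39, -0.30, -0.25 and -0.22.

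Both sides of this ratio were looked at apart. At the matched separations of 20 to 50 Mb, contact between arms had a median log2 ratio of -0.026 over chromosomes, and contact within arms one of 0.10, higher on 17 of 18. By separation, contact between arms was lower near the centromere and higher far from it. For pairs 2 to 10 Mb apart across the centromere it was lower by -0.21, with 102656 contacts against 88277, and on 14 of 15 chromosomes (93.3%). At 10 to 20 Mb it was lower by -0.11, on 14 of 16 (87.5%), and at 20 to 50 Mb by -0.022. At 50 to 100 Mb it was higher by 0.099, on 16 of 17 chromosomes (94.1%), and at 100 Mb or more by 0.074, on 12 of 13.

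At 2 to 10 Mb the lowest chromosomes were 11 (-0.49), 6 (-0.45), 2 (-0.45) and 10 (-0.40), and the exception was 19, at 0.082. Bins next to centromeres are often left out of balancing, and the number of valid pairs in this class differed between the libraries on most chromosomes, for example 1420 against 1209 on chromosome 11. Chromosomes 4, 18 and X had the same number in both, 10306, 1891 and 5901, and their log2 ratios were -0.31, -0.23 and -0.23. In DNMT1-AID cells at 4 d contact between arms was lower in all 5 classes, by -0.080, -0.13, -0.20, -0.16 and -0.086. The knockout at 10 d had -0.33, -0.25, -0.039, 0.32 and 0.28.

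Contacts between chromosomes (trans contacts) were a smaller share after 4 d, at 24.407% (interval 24.399% to 24.414%) against 25.165% (25.157% to 25.173%). The share was lower on 22 of 23 chromosomes (95.7%), with a median log2 ratio of -0.031 and an SD of 0.014. Chromosome 19 was the exception, with 52.0% against 51.3% (0.019, or 0.00021 with balanced sums), and chromosome 4 lay lowest, with 32.9% against 34.2% (-0.052). The small gene-rich chromosomes 22 and 17 had -0.036 and -0.032. In DNMT1-AID cells at 4 d the trans share was also lower, by a log2 ratio of -0.058 and on 23 of 23 chromosomes. In the knockout at 10 d, against the same untreated library, it was higher, at 29.2% (log2 ratio 0.22) and on 23 of 23 chromosomes.

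Chromosome pairs were compared after removing the change that all pairs shared, whose median was a log2 ratio of -0.028. Of 253 pairs, 17 (6.72%) lay at or below -0.05 and 17 (6.72%) at or above 0.05, and the counting intervals reached a median of 0.013 to either side. By construction 49.8% of all pairs lay below the median pair and 49.8% above it. Pairs with chromosome 22 made up 11 of the 17 low pairs. The pair of 11 and 22 was lowest at -0.10, with 47345 contacts against 41180, and it was followed by 4 with 22, 10 with 22, 14 with 22 and 16 with 22. The 22 pairs of chromosome 22 had a median of -0.048, and the 13 pairs it forms with chromosomes 1 to 12 and X had one of -0.057, with 12 of 13 lower. The 9 pairs it forms with chromosomes 13 to 22 had a median of 0.0060, with 5 of 9 higher. When raw counts over each chromosome's trans total replaced the balanced values, these 3 medians were 0.00026, -0.010 and 0.043. That division takes out any change that all pairs of a chromosome share, so it cannot show whether such a change is present. The low values of chromosome 22 were not particular to the knockout. In DNMT1-AID cells at 4 d its 22 pairs had a median of -0.067 from balanced values, with 21 of 22 lower.

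Of the 17 high pairs, 7 held chromosome 19 and 7 chromosome 21, with their own pair counted in both. Chromosome 21 is an acrocentric chromosome with ribosomal DNA on its short arm, and 19 is the most gene-dense one. Their own pair was highest, with 30101 contacts against 21458 and a relative log2 change of 0.19, or 0.12 with raw counts. It was followed by 15 with 19 (0.11), 18 with 21 (0.10), 20 with 21 (0.094), 18 with 19 (0.094) and 15 with 21 (0.091). The high pairs that hold neither were 13 with 14 (0.076, and 0.074 with raw counts), 5 with 15 (0.070), 15 with 18 (0.064) and 18 with 20 (0.058). The pairs of 19 with chromosomes 13 to 22 had a median of 0.068, with 8 of 9 higher, and the pairs of 21 with them one of 0.075, also with 8 of 9 higher. With raw counts these medians were 0.036 and 0.046. Both sets hold the pair of 19 and 21, and these chromosomes were chosen with earlier results of these data known. The counts of higher pairs are therefore a description and add no support. With chromosomes 1 to 12 and X, by contrast, the medians of 19 and 21 were 0.0088 and 0.010. With raw counts they were -0.015 and -0.012. Division by the trans totals makes the pairs of a chromosome roughly balance, so higher values with some partners bring lower ones with the rest.

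The pair of 19 and 21 had a relative log2 change of 0.0028 in DNMT1-AID cells at 4 d, and 0.18 in the knockout at 10 d against the same untreated library. The pairs of 21 with chromosomes 13 to 22 had a median of -0.058 in DNMT1-AID cells. Over all partners, the pairs of 19 had a median of 0.053 there (18 of 22 higher), against 0.032 in the knockout (17 of 22 higher). Those of chromosome 5 had 0.019 in DNMT1-AID cells (18 of 22 higher). Among the other chromosomes, in the knockout at 4 d, pairs of chromosome 5 were higher in 21 of 22 cases. Their median was 0.025, a value of 0.0020 with raw counts. The 10 pairs among the gene-poor chromosomes 4, 5, 13, 18 and X had a median of 0.014, which turned to -0.0070 with raw counts, and those among the gene-rich small chromosomes 16, 17, 19, 20 and 22 one of -0.014, which turned to 0.0055. Over the 253 pairs, the relative changes had r = 0.73 between balanced values and raw counts, r = 0.064 with the untreated contact of the pair and r = 0.079 with the relative changes in DNMT1-AID cells.

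**Figure D5:**
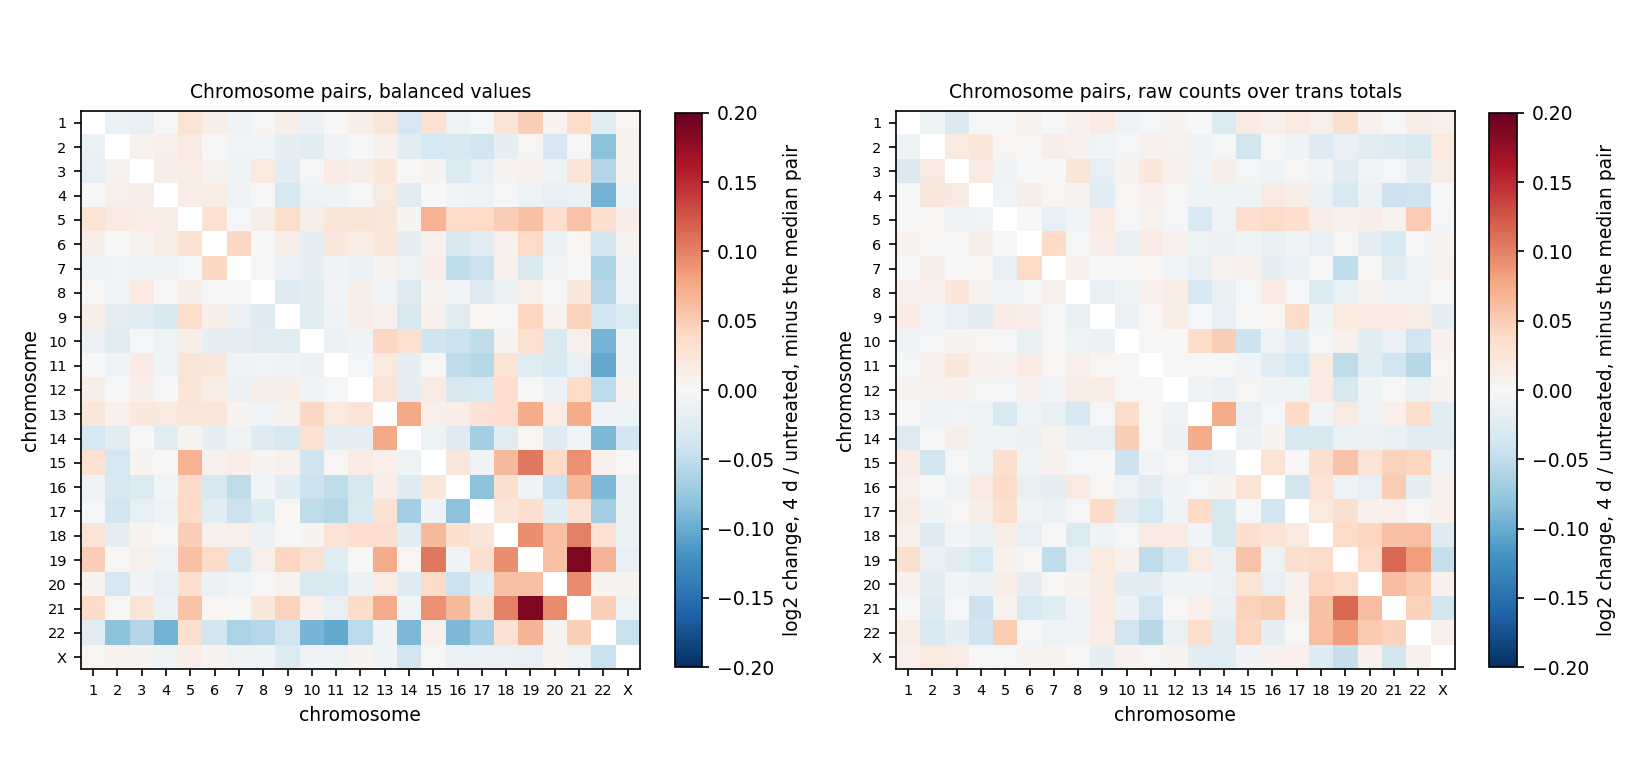
Each cell is a pair of chromosomes (both axes), coloured by its log2 change in the knockout after 4 d minus that of the median pair, from balanced values (left) and from raw counts over the trans totals (right), with red for higher and blue for lower. The mostly blue row of chromosome 22 in the left panel (median -0.048, 16 of 22 pairs lower) is not present in the right one (0.00026). There, changes shared by all pairs of a chromosome are divided out. The pair of 19 and 21 is the reddest in the left panel (0.19) and has 0.12 in the right one.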

How the data were processed

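Hi-C libraries of DLD-1 cells were made with an Arima kit, per the labels' protocols, and the submitters' processing notes name BWA and the build hg38. How read pairs were filtered and which programs balanced and summed the contacts is not given in the sources used here. Per the file headers, the deposited tables give, for 50 kb bins from a separation of 2 bins on, the raw count of contacts, the summed balanced signal and how many bin pairs were valid, within arms, between arms and between chromosomes. Counts are not normalised and include bins that balancing left out. The authors' balanced signal gives each bin about the same total, so a lower trans share raises contact within chromosomes.

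Chromosomes 1 to 22 and X were used. Shares come from counts, with 95% exact binomial (Clopper-Pearson) intervals and conditional exact intervals for their log2 ratios. Contact per bin pair, the decay exponent (20 log-spaced bins), the inter-arm ratio (chromosomes with at least 10000 bin pairs) and pair contacts come from the balanced signal. Arms needed 1000 counts. Genes per Mb are 19974 RefSeq protein-coding genes of GRCh38.p14, placed by their leftmost coordinate, over valid bins. The features named are the 8 lowest and 8 highest arms and pairs and the 5 lowest and 5 highest chromosomes, of which those the results turn on are printed. Members and lists were chosen with earlier results of these data known. Alternatives changed the boundaries, ranges, denominators, matching and the use of raw counts or balanced sums. Calculations used Python 3.11.15, numpy 2.4.6, pandas 2.3.3 and scipy 1.17.1, and were tested on simulated data.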

Additional observations from a re-analysis of the deposited data

Results flagged for a closer look

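Several changes at 4 d had opposite directions in the knockout and in DNMT1-AID cells. The knockout minus DNMT1-AID difference was 0.27 for the log2 ratio of the share at 10 Mb or more, -0.066 for that of the share under 1 Mb and 0.073 for the decay exponent. It was 0.18 for the log2 ratio of the inter-arm share of contacts within chromosomes and -0.19 for that of the inter-arm ratio. Contact between arms at 20 to 50 Mb was itself lower in both genotypes, by -0.022 in the knockout and -0.20 in DNMT1-AID cells. In the share at 10 Mb or more the genotypes lay farther apart without auxin than at 4 d (DNMT1-AID 16.27% and 14.15%, knockout 13.82% and 14.46%). The same held for the share under 1 Mb and the decay exponent. In the inter-arm share and ratio they lay closer without auxin (ratio 0.839 in DNMT1-AID and 0.841 in the knockout) than at 4 d (0.885 and 0.778). Each of the 4 groups holds 1 library, and the difference was not tested.

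Outside the compared contacts, mitochondrial DNA had 949 of every 1000000 contacts in the treated library, above the 534 in the untreated one. Between 16p and 16q, at a separation of 11.8 Mb, the treated library held 2812 counts (21.1 for every 1000000 contacts), against 1013 (9.97) without auxin. In the treated library none of the 20 neighbouring separations between 11.3 and 12.3 Mb held more than 145 counts. The values over all 7 libraries ran from 5.49 to 21.1 for every 1000000 contacts. The balanced contact per valid pair was lower in the treated library, at 0.00681 against 0.00886, over 16 and 12 valid pairs.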

How the results depend on the processing

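No paired analysis was possible because each group holds 1 library, and for the same reason no library could be left out. Of 243 values under alternative settings, 17 turned in direction. The pooled values and counts that moved by more than their counting error or by over 1.5 times, and all values that turned, were these. The exponent has no counting error and was judged by its SD over arms, so its other values are printed too. A further 118 values of single arms, chromosomes, pairs or classes moved without turning, among them 19p, 17q, 22q and 9q, which were closer to 0 over contacts from 1 Mb on. The log2 ratio of the trans share (-0.044) was -0.0377 counted from 200 kb, -0.0379 from 1 Mb and -0.029 with balanced sums. Of the chromosomes named, 21 turned to 0.0057 with balanced sums and 15 to 0.00059 from 1 Mb. The chromosomes with a lower share numbered 21 of 23 with balanced sums and 19 of 23 from 1 Mb. The log2 ratio of the share at 10 Mb or more (0.065) was 0.045 with a boundary of 5 Mb, 0.099 at 20 Mb, 0.068 with balanced sums and 0.054 over contacts from 1 Mb on. That of the share under 1 Mb (-0.0063) was -0.00084 with 0.5 Mb, -0.0098 with 2 Mb and -0.0079 with balanced sums. Arm 17p turned to 0.0058 with balanced sums and 0.0076 over contacts from 1 Mb on, 19q to 0.062 at 20 Mb and 0.050 over contacts from 1 Mb on, and 15q to 0.042 and 0.015. Contact at 50 to 100 Mb was 0.271 with raw counts and 0.271 over the balanced total within arms, and contact at 5 to 10 Mb turned to -0.0027 with raw counts. The exponent difference (0.011) turned to -0.00083 at 0.3 to 3 Mb. It was 0.035 at 5 to 50 Mb, where it was higher in 37 arms, 0.0105 with 10 log-spaced bins and 0.0027 with raw counts. The log2 ratio of the inter-arm ratio (-0.11) was -0.094 without matching, -0.12 at 10 to 40 Mb, where X turned to -0.077 and 20 to -0.033, and -0.13 at 30 to 60 Mb. With raw counts 13 pairs in place of 34 lay beyond 0.05, and the medians of the gene-rich pairs (0.0055), the gene-poor pairs (-0.0070), 19 and 21 with chromosomes 1 to 12 and X (-0.015 and -0.012) and 22 (0.00026) turned. Division by each chromosome's trans total removes changes that all its pairs share, so these turns do not test such changes. Coverage of chromosome 19 was -0.041 in trans contacts. The genotype difference in the share at 10 Mb or more (0.27), with settings chosen after seeing the data, was 0.20 at 5 Mb, 0.36 at 20 Mb and 0.16 over contacts from 1 Mb on. The causes were not tested. Among arms, the counting interval of the log2 ratio of the share at 10 Mb or more was widest for 18p.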
